A study of Anethum foeniculum with 6 samples.

Results

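Among 27955 genes of a fennel leaf transcriptome assembled without a genome, 127 were represented by 8 or more contigs each. They were chosen by counting the contigs listed under each gene identifier, a count that uses no expression value. The 127 genes held 1157 of the 45273 contigs, and 63 of them had exactly 8 contigs, 31 had 9 and 33 had 10 or more, up to 16. The leaves came from fennel of genotype WT grown hydroponically for 5 weeks in sealed greenhouses at 800 ppm CO2 (elevated) or at 400 ppm CO2, with 3 libraries labelled as biological replicates in each group. How many plants stand behind a library is not stated. Each CO2 concentration was kept in its own greenhouse, so CO2 and greenhouse cannot be told apart. The reads of all libraries were merged for 1 assembly, so both groups were measured against the same contigs.

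In a Trinity assembly, a contig is a reconstructed transcript, and contigs that share sequence in the assembly graph are placed under 1 gene identifier. A gene can gather many contigs when its transcript is spliced in several ways, with intron retention being the most common form in plants, when alleles differ, when close paralogs are joined, or when a transcript is assembled in pieces. These sources cannot be told apart from the identifiers and lengths used here, and the tables pair no identifier with a gene name or function. The genes are therefore described by their contigs, levels and responses, with no role given to any of them.

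Each contig has an estimated read count, a TPM (a level per length that sums to the same total in each library) and a share, which is its percent of the summed TPM of its gene in that library. Estimated reads per library totalled 15621668 to 18089692 at 800 ppm and 13118825 to 19841835 at 400 ppm. The 127 genes took 1.18%, 1.19% and 1.27% of the reads in the 800 ppm libraries, against 1.57%, 1.69% and 1.51% in the 400 ppm libraries. The groups did not overlap in this percentage, which is a fraction of unscaled reads. With library sizes alone as the scaling, genes over the whole assembly were also lower at 800 ppm. The median log2 fold change (800 over 400 ppm) was then -0.28 over all genes tested and -0.36 over the 127 genes. Without TRINITY_DN27151_c0_g2, the gene with the highest TPM, the shares were 1.10%, 1.09% and 1.16% at 800 ppm and 1.28%, 1.25% and 1.26% at 400 ppm, a setting chosen after the data were seen.

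All 127 genes had reads in all 6 libraries. Their gene-sum TPM had a median of 37.9 (range 2.11 to 1900), against 6.71 over all genes. Their abundance therefore lay mostly in the upper part of the assembly, while single contigs were shallow. The median tested contig of these genes had 4.06 CPM (reads scaled to a common library size), against 7.44 CPM over all tested contigs. Of the 1157 contigs, 871 passed the filter on low counts, 286 did not, and 20 had no read in any library. A further description of the thin tail was that 57 contigs (4.93%), spread over 40 genes, stayed under 1% of their gene in every library.

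The counts of contigs in these genes were mostly fractions, as happens when reads that fit several contigs are divided by estimation. Of the contig counts above 0, 3.78% were whole numbers within 0.005, against 97.8% for genes with a single contig. Summed over the contigs of a gene, 87.1% of the counts were whole within 0.05, against 97.5% over all genes. The value of a single contig thus depends on how shared reads were split, whereas the sum over a gene does not depend on the split within it. A sum can still depend on a split of reads with other genes, which was not tested.

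The contigs of 1 gene differed widely in length. The longest contig of a gene had a median of 2913 bases (range 436 to 9184) and the shortest a median of 920 bases (range 300 to 3581). The ratio of longest to shortest had a median of 3.08, with quartiles of 2.09 and 4.11, against 2.06 for genes with 4 to 7 contigs and 1.27 for genes with 2 or 3. A ratio of extremes tends to be larger over more contigs by construction, and genes with exactly 7 contigs had a median ratio of 2.83.

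The largest spread was that of TRINITY_DN3369_c0_g1, whose 8 contigs ran over lengths of 594 to 5057 bases, a ratio of 8.51. Its leading contig of 1834 bases was neither the longest nor the shortest, and no contig of this gene passed the test between the CO2 groups. The smallest spread was that of TRINITY_DN2610_c0_g1, with 8 contigs of 2207 to 2406 bases and a ratio of 1.09. There the longest contig led in every library, with 51.6%, 45.3% and 47.9% of the gene at 800 ppm and 52.9%, 56.6% and 56.1% at 400 ppm.

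The leading contig, defined here as the one with the highest mean share over the 6 libraries, was seldom the longest. It was the longest in 16 genes, the shortest in 12 and of intermediate length in 99. Its length had a median of 71.5% of the longest contig (range 12.7% to 100%). In 33 genes some contigs had equal lengths, 116 contigs in all and as many as 10 in 1 gene. The contig numbers within a gene were not continuous. In 117 genes the highest contig number exceeded the count of contigs listed, up to number 40 in TRINITY_DN1677_c0_g1, which had 13 listed contigs. The authors removed redundant transcripts before deposit, and whether that step accounts for these gaps was not tested.

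**Figure D1:**
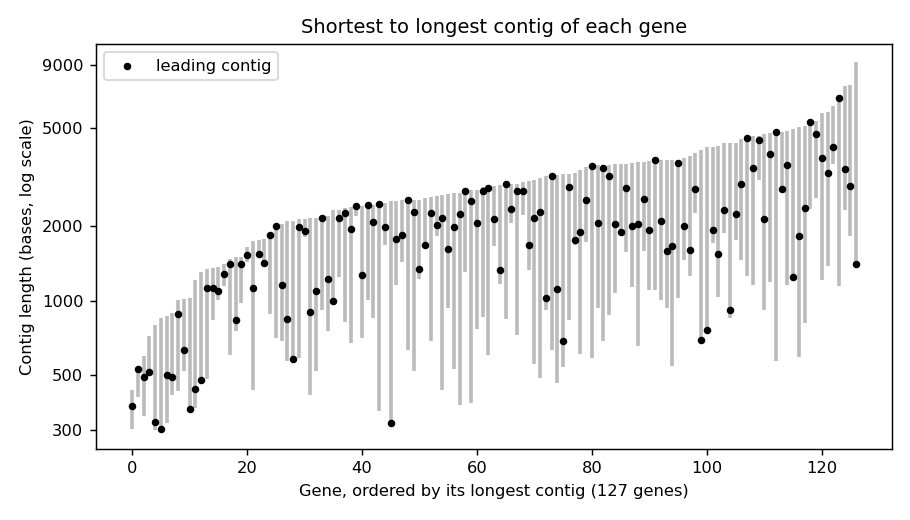
Contig lengths of the 127 genes on a log scale in bases, with a grey bar from the shortest to the longest contig of each gene, a black point for the leading contig, and genes ordered by their longest contig. The leading contig lay at the top of the bar in 16 genes, at its bottom in 12 and between them in 99.

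The leading contig usually held less than the rest of the gene together. The median over genes of its share was 35.8%, 38.4% and 42.4% in the 800 ppm libraries (38.9% ± 3.31, SD, n = 3) and 35.9%, 39.2% and 34.6% in the 400 ppm libraries (36.5% ± 2.37, SD, n = 3), taking in each library the contig that led there. The groups overlapped. Averaged over the libraries, the share of single genes ran over 20.01% to 91.6% with quartiles of 31.0% and 48.7%, and it was 50% or more in 30 of the 127 genes.

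By construction an even split over more contigs gives smaller shares, and more contigs went with a smaller leading share across the threshold that defined the group. Genes with exactly 8 contigs had medians of 39.0% at 800 ppm and 37.3% at 400 ppm. The 123 genes just outside, with exactly 7 contigs, had medians of 45.1% at 800 ppm and 44.9% at 400 ppm. Genes with 4 to 7 contigs had 59.2% at 800 ppm and 58.6% at 400 ppm.

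**Figure D2:**
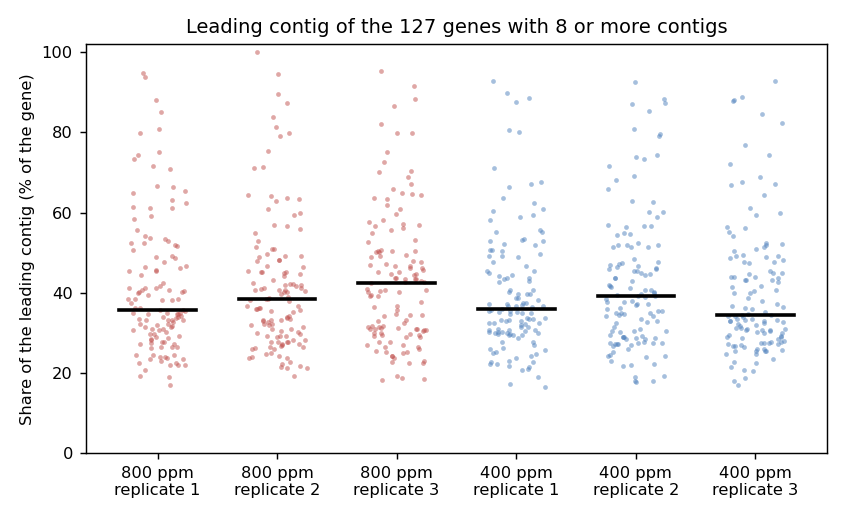
Share of the leading contig in percent of the gene for each of the 127 genes (points) in the 3 libraries at 800 ppm and the 3 at 400 ppm, with the median over genes as a black line. The medians lie between 35.8% and 42.4% at 800 ppm and between 34.6% and 39.2% at 400 ppm, and single genes run over most of the scale in every library.

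A small number of contigs carried most of each gene. Counted in each library from the highest share down, the median gene needed 2 contigs to reach 50% of its TPM, 4 to reach 80% and 5 to reach 90%, in all 6 libraries alike. Averaged over the libraries, the number needed for 80% ran over 1 to 6.5, with 11 genes needing at most 2 and 18 needing at least 5. Genes with exactly 7 contigs needed a median of 3, and genes with 4 to 7 contigs needed 2.

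**Figure D3:**
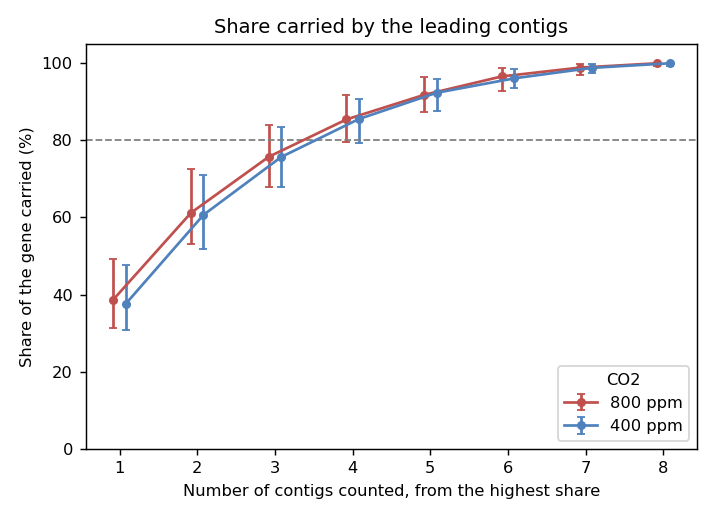
Summed share of the gene in percent (points, medians over the 127 genes, with bars from the lower to the upper quartile) against the number of contigs counted from the highest share, for the mean of the libraries at 800 ppm and at 400 ppm. The first 3 contigs carried 75.7% in both groups, the first 4 carried 85.4% at 800 ppm and 85.5% at 400 ppm, and the dashed line marks 80%.

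Genes at the ends of this scale looked very different. TRINITY_DN9893_c0_g1, with 8 contigs of 438 to 2680 bases, was carried by its contig i5 of 2169 bases at 94.8%, 89.5% and 91.5% in the 800 ppm libraries and 92.8%, 92.4% and 88.7% in the 400 ppm libraries. The groups overlapped, and no other contig of this gene reached 4% in any library. At the other end was TRINITY_DN2885_c0_g1, with 12 contigs. Its highest share was 19.1%, 19.2% and 26.1% at 800 ppm and 19.1%, 17.9% and 18.8% at 400 ppm. The gene was still split unevenly, with its contig i12 at 3.11%, 0% and 0% at 800 ppm and 0%, 3.82% and 2.19% at 400 ppm. Between 4 and 7 of its contigs were needed for 80%, and 3 different contigs led in at least 1 library. TRINITY_DN1926_c0_g1, with 10 contigs, had the next lowest leading share, 22.1%, 21.4% and 31.0% at 800 ppm and 16.7%, 17.9% and 17.0% at 400 ppm, so each 800 ppm library lay above each 400 ppm library. Its gene sum did not pass the test.

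The gene with the most contigs, TRINITY_DN565_c1_g1, had 16 of 465 to 3233 bases. Its contig i10 of 1113 bases led in all 6 libraries with 33.4%, 27.8% and 29.9% at 800 ppm and 30.2%, 27.2% and 34.0% at 400 ppm, and 5 to 8 contigs were needed for 80%. In its contigs i5, i7, i9, i11, i12, i14 and i20, replicate 2 of each group had the highest share of its group. For example, i11 had 2.98%, 9.82% and 1.31% at 800 ppm and 1.19%, 10.4% and 0% at 400 ppm. In contigs i2, i4, i8 and i10, replicate 2 had the lowest share of each group. Its gene sum was 86.2, 171 and 99.2 CPM at 800 ppm and 141, 224 and 87.7 CPM at 400 ppm, overlapping groups in which replicate 2 was again the highest of each. None of its 14 tested contigs passed the test.

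The leader was less settled in these genes than in genes with fewer contigs. The same contig led in all 6 libraries in 46 of 127 genes (36.2%), against 61.7% of genes with 4 to 7 contigs. Across the threshold the values were 31.7% with exactly 8 contigs and 43.9% with exactly 7. In 38 genes 2 contigs led in at least 1 library each, and in 43 genes 3 or more did.

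Only 3 of the 127 genes had 1 leader in all 800 ppm libraries and another in all 400 ppm libraries. The count was 2 of the 123 genes with exactly 7 contigs and 32 of the 1884 genes with 4 to 7. The 3 genes were picked out after their values were seen. In TRINITY_DN2201_c0_g1, contig i15 (1822 bases) led at 800 ppm with 36.3%, 27.2% and 27.8%, against 23.1%, 13.01% and 24.4% of the gene at 400 ppm. There its contig i14 (2907 bases) led with 31.5%, 35.6% and 27.7%. In TRINITY_DN7864_c0_g1, contig i5 (2022 bases) held 40.2%, 44.6% and 58.1% at 800 ppm against 32.2%, 28.0% and 29.9% at 400 ppm, where contig i3 (2150 bases) led with 39.6%, 42.9% and 34.6%. At 800 ppm contig i3 held 39.2%, 30.8% and 19.8%, so the lead of i5 was narrow in replicate 1. In TRINITY_DN2201_c0_g1 and TRINITY_DN7864_c0_g1 the share of the contig that led at 800 ppm did not overlap between the groups. In TRINITY_DN281_c0_g1 the margins were small in both groups, with contig i9 at 28.9%, 28.2% and 27.0% and contig i14 at 26.2%, 21.6% and 26.9% at 800 ppm, against 30.1%, 22.2% and 27.9% for i9 and 32.5%, 28.7% and 28.0% for i14 at 400 ppm.

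Between the CO2 groups, the leading share moved about as often up as down. The difference of 800 ppm minus 400 ppm had a median of 0.19 percentage points (quartiles -3.75 and 5.84), higher at 800 ppm in 64 genes and lower in 63. The SD of the leading share within a group had a median of 4.65 points, and 61 of the 127 differences were no larger than this. The 3 libraries of each group did not overlap in 29 genes (22.8%), against 20.3% of all 8902 genes with 2 or more contigs and reads in each library. The higher share was at 800 ppm in 20 of them and the lower in 9, and over all these genes 10.6% were higher and 9.67% lower without overlap. Among genes with exactly 7 contigs, 15 were higher and 15 lower.

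The comparison of 800 ppm with 400 ppm asked whether the expression of these genes differed with the CO2 supply, first on the sum over the contigs of a gene. By edgeR's quasi-likelihood test on all genes with Benjamini-Hochberg adjustment, 24 of the 127 genes passed an adjusted p of 0.05 (18.9%), 12 up and 12 down at 800 ppm. Over all 20328 genes tested, 24.8% passed, 14.8% up and 9.96% down. The members' share lay below this background, although their median gene sum of 50.6 CPM was above the 15.5 CPM of all tested genes. Among genes with exactly 8 contigs 11 of 63 passed, against 25 of the 121 tested genes with exactly 7. The median log2 fold change of the 127 genes was -0.09, against -0.01 over all genes, and their median absolute change was 0.32 against 0.42. With library sizes alone as the scaling, 10 were up and 39 down, and the median of all genes moved to -0.28. Without replicate 1 or 3 of the 800 ppm group or replicate 2 or 3 of the 400 ppm group, the number down was 3, 4, 4 and 4 in that order, and the number up without replicate 3 of the 800 ppm group or replicate 1 of the 400 ppm group was 8.

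The CPM of the groups did not overlap in 45 of the 127 genes (35.4%), 15 higher and 30 lower at 800 ppm, against 45.3% of all genes tested and 30.6% of those with exactly 7 contigs. All 24 genes that passed the test were among the 45. A two-sided exact permutation test on 3 against 3 libraries cannot give a p below 0.1, so single genes rest on the fit across all genes. The 12 genes that rose had log2 fold changes of 0.46 to 2.18 with a median of 1.04, and 6 of them at least doubled. Those that fell had a median of -0.64, and TRINITY_DN27151_c0_g2 and TRINITY_DN5540_c0_g1 were the 2 that changed at least 2-fold.

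**Figure D4:**
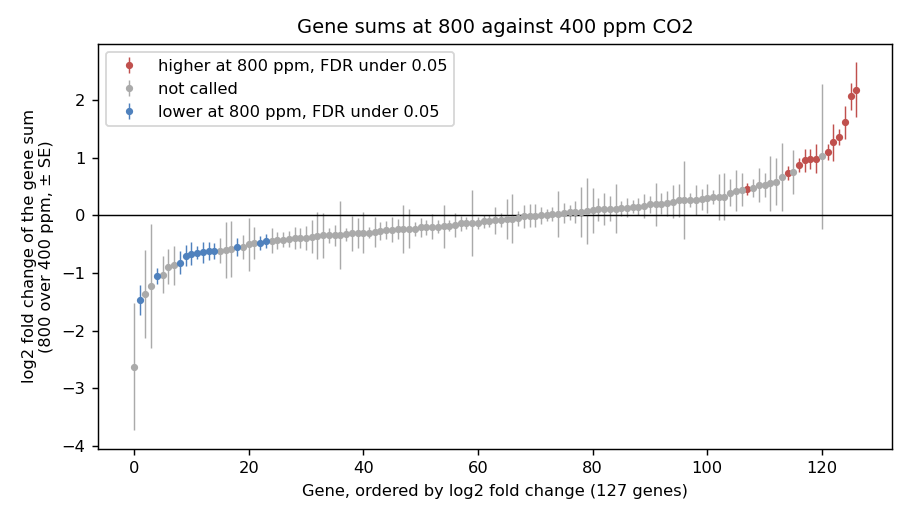
Fitted log2 fold change of the gene sum (800 over 400 ppm, point, with bars of ± 1 standard error) for the 127 genes in order of the change. The 12 red genes were higher and the 12 blue genes lower at 800 ppm at an adjusted p under 0.05, and the leftmost gene, at -2.62 with a wide bar, did not pass.

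The largest rise was that of TRINITY_DN1290_c0_g1, a gene of 11 contigs of 1430 to 2553 bases. Its gene sum was 36.9, 74.95 and 53.1 CPM in the 800 ppm libraries, against 20.02, 5.78 and 10.9 CPM in the 400 ppm libraries. Every 800 ppm library lay above every 400 ppm library, and the log2 fold change was 2.18 (SE 0.47, adjusted p = 0.0189, edgeR). Without replicate 3 of the 400 ppm group the adjusted p was 0.0677. Contig i13 led in all 6 libraries with 46.4%, 36.2% and 53.2% at 800 ppm and 53.3%, 52.5% and 47.8% at 400 ppm. Reaching 80% of the gene took 5 contigs in each 800 ppm library and 3, 3 and 4 in the 400 ppm libraries. Of its 10 tested contigs, 4 rose and none fell.

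The second largest rise was that of TRINITY_DN281_c0_g1, with 8 contigs of 1467 to 4521 bases. It had 155, 116 and 195 CPM at 800 ppm, against 44.4, 29.2 and 38.4 CPM at 400 ppm. The groups lay far apart, with a log2 fold change of 2.06 (SE 0.24, adjusted p = 0.00289, edgeR), and the call held under all alternatives tried. All 8 of its contigs rose when tested singly, with log2 fold changes of 1.43 for i4 to 5.04 for i15. The rise was therefore spread over the whole set of contigs, including the shortest and the longest.

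The largest fall that passed was that of TRINITY_DN27151_c0_g2, which has 8 contigs of 1161 to 2529 bases. Its TPM was 734, 885 and 930 at 800 ppm, against 2625, 3914 and 2313 at 400 ppm. In CPM it had 882, 1156 and 1234 at 800 ppm, against 2571, 4169 and 2332 at 400 ppm. The groups did not overlap, and the fitted log2 fold change was -1.47 (SE 0.26, adjusted p = 0.0102, edgeR). The leading contig i1 (1772 bases) fell as well, by 1.62 on the log2 scale (adjusted p = 0.014, edgeR), and its share was 73.3%, 79.8% and 82.0% at 800 ppm and 87.6%, 88.3% and 92.8% at 400 ppm. Contig i4 (1513 bases) rose by 0.93 on the log2 scale (adjusted p = 0.033, edgeR) and held 3.70%, 3.35% and 2.75% of the gene at 800 ppm, against 0.70%, 0.35% and 1.04% at 400 ppm. The sum of the gene thus followed its leader while a minor contig moved the other way.

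The next largest fall was in TRINITY_DN5540_c0_g1, with 9 contigs of 852 to 4354 bases. It had 122, 143 and 128 CPM at 800 ppm, against 255, 247 and 316 CPM at 400 ppm. The groups did not overlap, and the log2 fold change was -1.06 (SE 0.14, adjusted p = 0.00402, edgeR). The only contig of this gene that passed the test was the short i6 of 915 bases, whose log2 fold change was -1.39 and whose share was 70.8%, 71.1% and 72.7% at 800 ppm and 88.5%, 85.3% and 88.1% at 400 ppm. The still shorter contig i4 of 852 bases did not pass, with a log2 fold change of 0.17 and shares of 24.6%, 23.8% and 23.0% at 800 ppm and 8.92%, 11.2% and 9.68% at 400 ppm. Reaching 80% of the gene took 2 contigs in each 800 ppm library and 1 in each 400 ppm library.

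Of the genes singled out for their structure, TRINITY_DN2977_c0_g1 and TRINITY_DN430_c0_g1 also rose. The first, with 13 contigs of 1245 to 4931 bases and the second highest TPM, had 1948, 2211 and 2151 TPM at 800 ppm and 998, 906 and 1100 TPM at 400 ppm. Its log2 fold change in gene-sum reads was 1.35 (SE 0.14, adjusted p = 0.00231, edgeR). Its shortest contig, i18, led with 93.7%, 94.5% and 95.2% at 800 ppm and 89.7%, 87.0% and 87.7% at 400 ppm, without overlap. TRINITY_DN430_c0_g1, with 14 contigs of 1677 to 2495 bases, had 189, 179 and 248 CPM at 800 ppm and 108, 116 and 88.8 CPM at 400 ppm. Its log2 fold change was 0.98 (SE 0.17, adjusted p = 0.00969, edgeR), and 3 of its 11 tested contigs rose.

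The most negative gene-sum change of all was in TRINITY_DN12270_c0_g1, named outside the rule after its values were seen. It had 0.32, 0.06 and 1.23 CPM at 800 ppm and 1.62, 0.86 and 7.38 CPM at 400 ppm. The groups overlapped, and the log2 fold change of -2.62 (SE 1.10, adjusted p = 0.128, edgeR) did not pass at this depth.

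Tested contig by contig, a smaller share passed than over the whole assembly, and genes with 2 to 7 contigs lay between. Of 871 tested contigs, 65 passed (7.46%), 43 up and 22 down, against 14.6% of all 32380 tested contigs, 9.36% up and 5.22% down. The share was 8.50% in genes with exactly 7 contigs and 10.03% in those with exactly 8, 11.5% in genes with 4 to 7 contigs and 14.04% in genes with 2 or 3. The contigs of these genes also varied more between libraries of a group, with a median SD of 0.53 in log2 CPM within a group against 0.31 over all tested contigs. For the gene sums the same SD was 0.28 against 0.24, and whether this spread lowers the share that passed was not tested. With library sizes alone as the scaling, 30 contigs were up and 77 down. Leaving out 1 library moved these counts. The number up was 16, 34 or 21 with replicate 1, 2 or 3 at 800 ppm left out. It was 31, 15 or 14 with replicate 1, 2 or 3 at 400 ppm left out. The number down was 6, 33 or 11 with replicate 1, 2 or 3 at 800 ppm left out, and 12, 6 or 5 with replicate 1, 2 or 3 at 400 ppm left out.

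Gene sums and their contigs share reads and are not independent. All 12 genes whose sum rose had a contig that rose, 35 of their 110 tested contigs in all. Among the 12 genes whose sum fell, 7 had a contig that fell, 9 of 94 tested contigs. The sum of the other 103 genes did not pass, and 18 of these had a contig that did, 7 contigs up and 13 down. Of the contigs that passed, 11 of the 43 that rose and 9 of the 22 that fell led their gene, while 122 of the 127 leading contigs could be tested.

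Contigs that passed in opposite directions within 1 gene occurred in 2 genes, TRINITY_DN27151_c0_g2 above and TRINITY_DN2201_c0_g1, picked out after their values were seen. In TRINITY_DN2201_c0_g1, contig i3 of 7448 bases rose by 1.39 on the log2 scale (adjusted p = 0.018, edgeR) and contig i14 of 2907 bases fell by 0.58 (adjusted p = 0.034, edgeR). Its gene sum was 113, 111 and 104 CPM at 800 ppm and 106, 89.8 and 101 CPM at 400 ppm. The groups overlapped there, and the gene-sum log2 fold change of 0.15 did not pass (adjusted p = 0.359, edgeR).

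The contigs with the largest fitted changes were minor parts of their genes. Contig i15 of TRINITY_DN8928_c0_g1 (1240 bases) had 36, 17 and 17 reads in the 800 ppm libraries and 0 in each 400 ppm library. Set against a floor of 3 reads over the 400 ppm group, its level at 800 ppm was at least 26.9-fold higher, a bound for counting error only (adjusted p = 0.0170, edgeR). Its adjusted p was 0.0721 without replicate 1 and 0.0563 without replicate 3 of the 800 ppm group, and the bound was 16.004 without replicate 2 of the 400 ppm group. The other 7 contigs of the gene together had 10.7 ± 3.31 CPM at 800 ppm, against 10.2 ± 2.78 CPM at 400 ppm (SD, n = 3 each).

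Contig i17 of TRINITY_DN1290_c0_g1, its longest at 2553 bases, had 44, 21 and 103 reads at 800 ppm, against 0, 0 and 4 at 400 ppm. Its log2 fold change was 5.49 (SE 1.27, adjusted p = 0.0354, edgeR), in a gene whose sum also rose. Its call was lost without replicate 1 or 3 of the 800 ppm group and without any 1 of the 400 ppm replicates, with adjusted p of 0.0908, 0.105, 0.0932, 0.102 and 0.0570 in that order.

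Contig i15 of TRINITY_DN1677_c0_g1 (1187 bases) fell, with 0, 2 and 0 reads at 800 ppm, against 17, 28 and 13 at 400 ppm. It held 0%, 1.33% and 0% of the gene at 800 ppm, against 11.2%, 16.8% and 9.13% at 400 ppm. Its log2 fold change was -4.43 (SE 1.001, adjusted p = 0.0331, edgeR), while the other 12 contigs summed to 29.2 ± 7.94 CPM at 800 ppm, against 24.1 ± 3.12 CPM at 400 ppm (SD, n = 3 each). Its adjusted p was 0.109 without replicate 1 and 0.0952 without replicate 3 at 800 ppm, and leaving out replicate 1, 2 or 3 at 400 ppm gave 0.0891, 0.112 or 0.0900. With no filter on low counts it was 0.0582.

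Contig i22 of TRINITY_DN345_c0_g1 (2925 bases) had 17, 39 and 11 reads at 800 ppm, against 51, 236 and 344 at 400 ppm. The groups did not overlap, although replicate 1 of the 400 ppm group stood close to the 800 ppm libraries. Its log2 fold change was -3.04 (SE 0.74, adjusted p = 0.0410, edgeR), beside a gene-sum change of -0.65 (adjusted p = 0.00967, edgeR). Leaving out replicate 1, 2 or 3 at 800 ppm gave an adjusted p of 0.143, 0.0541 or 0.115, and leaving out replicate 2 or 3 at 400 ppm gave 0.0996 or 0.110.

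Some contigs had no read in 1 group, 36 at 800 ppm and 23 at 400 ppm (5.10% of the 1157, against 5.41% of all contigs). In 6 contigs there were no reads at 800 ppm and reads in each 400 ppm library. In 2 contigs, i15 of TRINITY_DN8928_c0_g1 and i6 of TRINITY_DN2411_c0_g1, there were no reads at 400 ppm and reads in each 800 ppm library. Both kinds together made up 0.69% of the 1157 contigs, against 0.97% of all contigs. Contig i6 of TRINITY_DN2411_c0_g1, named after its values were seen, had 382, 2 and 2 reads at 800 ppm, so nearly all of them came from replicate 1.

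The last comparison asked whether the contigs of a gene changed in proportion to each other, by edgeR's test of differential usage with the Simes form. It could be run on 123 of the 127 genes. The other 4 genes, TRINITY_DN12270_c0_g1, TRINITY_DN13610_c0_g1, TRINITY_DN18790_c1_g1 and TRINITY_DN5700_c0_g1, were not tested for usage. At an adjusted p of 0.05, 3 genes passed (2.44%), against 1.07% of all 7008 genes tested, and 18 had an unadjusted p under 0.05. In genes with exactly 7 contigs 4.31% of those tested passed, and in genes with 4 to 7 contigs 1.80% did. With the F form of the test 8 of the 123 passed, against 260 of all 7008 genes tested (3.71%). Without replicate 3 of the 800 ppm group 5 genes passed. None of the 3 genes passed on its gene sum in the main edgeR fit. The gene sum of TRINITY_DN2024_c0_g1, with an adjusted p of 0.110 there (edgeR), did pass with DESeq2 (adjusted p = 0.0440). It also passed in edgeR with library sizes alone (0.0359) and without replicate 1 of the 400 ppm group (0.0174).

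The clearest change in proportion was that of TRINITY_DN8928_c0_g1 (adjusted p = 0.000758, edgeR), with 8 contigs of 686 to 2045 bases. Its contig i15 held 14.1%, 12.3% and 11.3% of the gene at 800 ppm and 0% in each 400 ppm library. Its usage call held without any 1 of the 6 libraries, with an adjusted p of 0.00794 to 0.0447. The contig that led most often, i13 of 1154 bases, had overlapping shares, and the gene sum was 16.4, 8.999 and 10.9 CPM at 800 ppm against 13.2, 9.93 and 7.69 CPM at 400 ppm.

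TRINITY_DN2024_c0_g1 (adjusted p = 0.00910, edgeR) was a set of near-equal lengths, 8 contigs of 1438 to 1652 bases of which 5 shared a length with another. Contig i4 (1438 bases) held 2.77%, 19.0% and 4.72% of the gene at 800 ppm, against 22.1%, 56.9% and 67.6% at 400 ppm, and contig i10 (1534 bases) held 61.5%, 48.1% and 44.5% at 800 ppm, against 35.3%, 13.8% and 12.0% at 400 ppm. Neither contig overlapped between the groups, and replicates 2 and 3 of the 400 ppm group stood apart from replicate 1. In the usage test per contig i4 passed (adjusted p = 0.00394, edgeR) and i10 did not (0.219). Tested as single contigs, i10 passed (adjusted p = 0.0140, edgeR) and i4 did not (0.0606). In CPM, contig i4 had 7.13, 54.0 and 16.3 at 800 ppm and 61.9, 347 and 516 at 400 ppm, while the other 7 contigs together had 266, 245 and 345 CPM at 800 ppm and 230, 275 and 260 CPM at 400 ppm. The groups overlapped in the sum of the others. The usage call was lost without replicate 1 or 3 of the 800 ppm group (adjusted p of 0.139 and 0.246, edgeR) and without replicate 2 or 3 of the 400 ppm group (0.104 and 0.113).

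The third gene, TRINITY_DN1166_c0_g1 (adjusted p = 0.0312, edgeR), named after its values were seen, has 9 contigs of 754 to 1501 bases. Its contig i8 (1277 bases) had 171, 215 and 24 reads at 800 ppm, against 5, 0 and 20 at 400 ppm. Replicate 3 of the 800 ppm group lay close to the highest 400 ppm library, and the contig itself did not pass (adjusted p = 0.0771, edgeR). The usage call was lost without replicate 1 or 2 of the 800 ppm group (adjusted p of 0.158 and 0.321, edgeR) and without replicate 1 or 2 of the 400 ppm group (0.322 and 0.314).

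**Figure D5:**
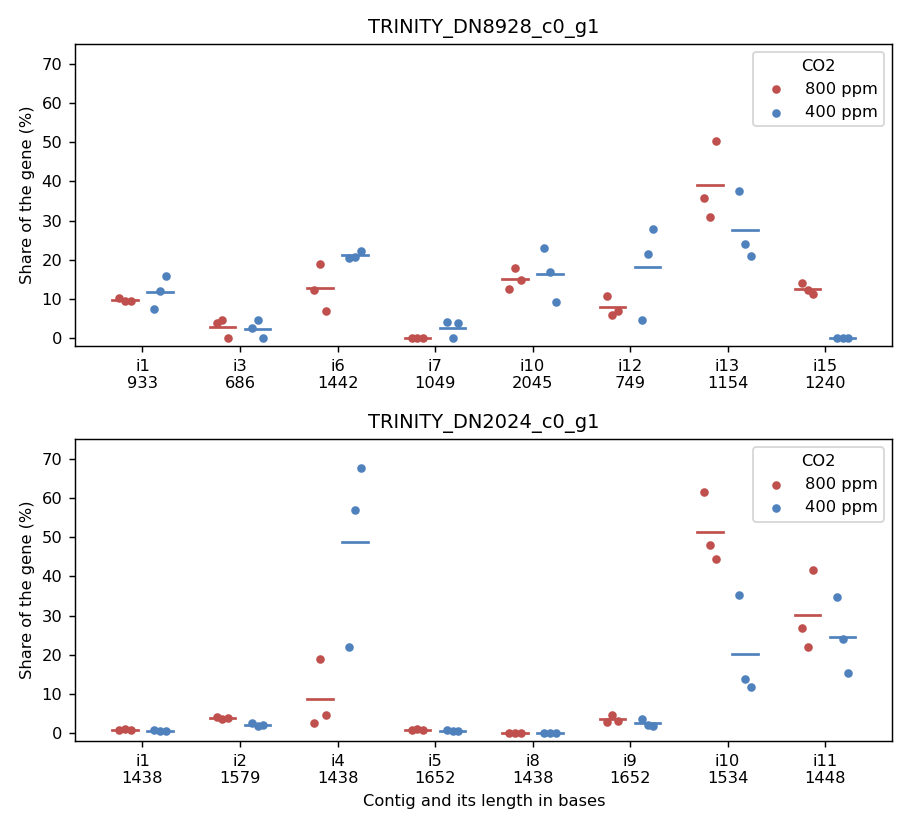
Share of the gene in percent for each contig of TRINITY_DN8928_c0_g1 (top) and TRINITY_DN2024_c0_g1 (bottom), with 1 point per library, the 800 ppm libraries left of the 400 ppm libraries and a bar at each group mean. Contig i15 of the first gene lies at 11.3% to 14.1% at 800 ppm and at 0% at 400 ppm, and in the second gene contigs i4 and i10 differ in opposite directions, i4 being lower and i10 higher in every 800 ppm library than in any 400 ppm library.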

How the data were processed

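RNA from fennel leaves was sequenced with paired-end Illumina reads. The authors assembled the merged reads with Trinity, predicted open reading frames with TransDecoder, filtered redundant transcripts by CD-hit, and used a Trinity script for expression levels. The sources used here do not name the aligner or the estimation program. The submitters' processing notes name edgeR. The deposited tables give, per contig and library, an estimated count, a TPM, the percent of the gene's TPM (IsoPct, the share) and the length. The authors' FPKM column was not used, and contig sequences were not used here.

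Genes with 8 or more listed contigs were taken. Their choice, the Simes form and the alternatives were made with earlier results of these data known. Estimated counts were rounded per contig, or summed per gene and then rounded, and tested with edgeR 4.0.16 in R 4.3.3 (TMM, filterByExpr with a minimum count of 10 and a total of 15, glmQLFit and glmQLFTest, Benjamini-Hochberg over all features tested). Contig usage was tested with diffSpliceDGE. The tests were checked on simulated counts, the usage test only at a spread between libraries below that of the contigs here. CPM uses TMM-scaled library sizes. Alternatives were DESeq2 1.42.0, other scalings and filters, the exact test, a replicate block and leaving out each library. Since the samples may share growing conditions within a greenhouse, p-values measure the spread between these libraries. Counting bounds cover counting error only. No 2 libraries agreed within sampling noise.

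Genes were named by rule: the 2 gene sums, and the 2 contigs, with the largest rise and the largest fall among those that passed without overlap, the 2 smallest usage p-values, and the extremes of contig number (3), TPM (3), leading share (2 each way) and length ratio (1 each way). Others are stated to be chosen after their values were seen. No gene lists by function were used, since identifiers carry no names.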

Additional observations from a re-analysis of the deposited data

How the results depend on the processing

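The numbers of genes and contigs that passed moved with the settings. The 12 genes down became 22 with DESeq2, 39 with library sizes alone, 2 at a 2-fold minimum and 3 to 10 when 1 library was left out, whereas the 12 up became 6 at a 2-fold minimum and 8 to 12 with 1 library left out. For contigs, 43 up and 22 down became 65 and 50 with DESeq2, while the number down was 77 with library sizes alone, 11 with no filter on low counts, 40 with the exact test and 10 at a 2-fold minimum. With 1 library left out, 14 to 34 contigs were up and 5 to 33 down. Usage calls numbered 8 with the F form and 2 to 5 with 1 library left out. The leading share was 35.3% at 800 ppm and 34.7% at 400 ppm with 1 leader fixed per gene. As a share of estimated counts it was 41.0% at 800 ppm and 40.7% at 400 ppm. The contigs needed for 80% were 4.67 at 800 ppm and 5 at 400 ppm in genes with 10 or more contigs, and reaching 90% took 5 in both groups. The median length ratio was 4.12 with effective lengths. What causes these shifts was not tested.

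Of the gene sums named, 3 that did not pass changed sign. The log2 fold change of TRINITY_DN8928_c0_g1 was -0.025 with library sizes alone and -0.041 without replicate 1 of the 800 ppm group, and 0.44 without replicate 1 of the 400 ppm group. That of TRINITY_DN565_c1_g1 was -0.70 without replicate 2 of the 800 ppm group and 0.045 without replicate 2 of the 400 ppm group. That of TRINITY_DN9893_c0_g1 was -0.21 with library sizes alone, -0.14 with replicate 2 at 800 ppm left out, -0.06 with replicate 1 at 400 ppm left out and 0.17 with replicate 1 at 800 ppm left out.

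Replicate numbers did not pair the libraries: same-numbered deviations correlated at 0.20, 0.02 and -0.14 over gene sums and at 0.08, -0.02 and -0.08 over contigs. With a replicate block 9 genes were up and 8 down, 22 contigs up and 7 down, and 2 genes passed for usage. The block ended these named calls, with the adjusted p by edgeR: the gene sum of TRINITY_DN1290_c0_g1 (0.0595), contig i15 of TRINITY_DN8928_c0_g1 (0.0981), contig i15 of TRINITY_DN1677_c0_g1 (0.0872), contig i22 of TRINITY_DN345_c0_g1 (0.0944) and the usage of TRINITY_DN1166_c0_g1 (0.577). Contigs with few reads set the limit of depth, since 286 of 1157 could not be tested.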
